A study of Homo sapiens with 4 samples.

Results

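The promoters of 40 genes that write, remove, bind or maintain heterochromatin and DNA methylation were followed in ATAC-seq libraries of MORC2 KO and WT HEK293T cells. They were taken by gene symbol from the promoter count table: H3K9 and H4K20 methyltransferases, H3K9 demethylases, HP1 proteins, DNA methylation and methyl-CpG genes, both Polycomb complexes, H3.3 and replication-coupled chaperones and 2 nuclear lamina genes. HUSH, SETDB1 and MORC genes were left out. All 40 were among the 28775 rows of the table, and all 40 were among the 27647 rows that passed the filter on low counts.

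ATAC-seq uses a transposase to cut and tag exposed DNA, so that the fragments counted over a promoter measure how accessible it is, not how much the gene is transcribed. The series compared 2 libraries of MORC2 KO cells with 2 libraries of WT cells, all from HEK293T, an established line of human embryonic kidney origin, with no other treatment named in the labels. According to the methods, KO replicates 1 and 2 were bulk pools, not clones, electroporated with Cas9 protein and guide 1 or guide 2 against MORC2, so guide and replicate cannot be told apart. The methods name the electroporated cells as HEK293, the labels as HEK293T, and no guide is listed for the WT libraries. In a bulk library, a promoter open in fewer cells and a promoter less open in each cell cannot be told apart.

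As background, trimethylation of H3K9 by the SUV39H enzymes marks constitutive heterochromatin, where HP1 proteins bind the mark and H4K20 methyltransferases act further downstream. DNMT1 copies CpG methylation after replication with the help of UHRF1, while TET enzymes oxidise the methyl group and MBD proteins read it. PRC2 writes H3K27 methylation and PRC1 ubiquitinates H2A at silent developmental genes. MORC2 is an ATPase that acts with the HUSH complex at H3K9-methylated chromatin.

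The libraries held between 9435801 and 15152636 promoter fragments, with 20.6 to 35.1% of them in mitochondrial rows, and KO replicate 2 was the deepest. Replicates differed by more than sampling noise, with a chi-square per degree of freedom of 1.20 for the KO pair and 1.33 for the WT pair, so each was counted as a separate sample. MORC2 (Gene ID 22880), the gene targeted, had a promoter that was called higher in KO (log2 fold change 0.43, SE 0.087, edgeR adjusted p 0.000279), which does not check the edit. Of the HEK293T marker promoters, VIM (73.0 to 85.8 CPM, the fragment count scaled to library size by TMM) and LHX1 (17.9 to 20.4 CPM) were accessible in all 4 libraries. PAX2 was lower, at 5.86 to 7.89 CPM. This was in the range of CDH5, an endothelial gene (5.59 to 8.51 CPM), whereas PTPRC, CD3E, ALB and HBB were at 1.11 to 2.87 CPM.

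To show what kind of promoter the results turn on, the 120 bases that end just before the RefSeq gene start are given for 5 of the genes. These are CBX1, TET2 and MBD2, which had the smallest p-values in the comparison below, and CBX3 and CBX5, the other HP1 genes. Sequences are from RefSeq on GRCh38.p14, 5′ to 3′ on the strand of the gene, with each CpG in capitals. The counted window lies on CHM13, another assembly, and which start site it used is not given in the sources used here. CBX1 lies on the minus strand at chr17:48101187-48101306 and has 14 CpGs in this stretch. TET2, on the plus strand at chr4:105145755-105145874, has 3. MBD2, on the minus strand at chr18:54224670-54224789, has 13. CBX3, on the plus strand at chr7:26201323-26201442, has 6, and CBX5, on the minus strand at chr12:54280123-54280242, has 10.
CBX1: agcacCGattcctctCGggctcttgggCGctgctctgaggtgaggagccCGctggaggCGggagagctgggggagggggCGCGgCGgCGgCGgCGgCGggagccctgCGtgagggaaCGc
TET2: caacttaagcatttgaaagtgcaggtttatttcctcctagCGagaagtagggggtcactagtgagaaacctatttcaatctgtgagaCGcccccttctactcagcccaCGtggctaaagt
MBD2: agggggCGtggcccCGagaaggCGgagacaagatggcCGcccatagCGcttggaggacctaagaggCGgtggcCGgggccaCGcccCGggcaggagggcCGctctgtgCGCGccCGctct
CBX3: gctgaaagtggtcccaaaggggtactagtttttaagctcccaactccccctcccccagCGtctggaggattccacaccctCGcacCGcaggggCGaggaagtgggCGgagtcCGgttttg
CBX5: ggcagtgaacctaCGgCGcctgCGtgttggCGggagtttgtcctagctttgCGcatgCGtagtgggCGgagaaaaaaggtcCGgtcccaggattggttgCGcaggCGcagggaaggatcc

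Most of the 40 promoters were CpG-rich by sequence. RefSeq promoters of 300 bases, 250 before and 50 after the start, were found for 38 of them, all but ATRX and DAXX. They held a median of 28 CpGs (3 to 51), against 14 over 27305 promoters of the same length. Their median ratio of observed to expected CpG was 0.903 against 0.580, and their median GC content 65.7% against 58.3%. LBR had the lowest GC content, 38.3%, and TET3 the highest, 82.7%.

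Motifs were searched as exact letters on both strands of these windows. TTTNNCGC, a core of the E2F site, where N is any base, was found in 9 of the 38 promoters (23.7%), against 6.90% of all promoters. The 9 were CBX3, CBX5, DNMT1, UHRF1, HELLS, CDCA7, EZH1, EZH2 and SUZ12. GCGCATGC, a core of the NRF1 site, was in 4 (CBX5, DNMT1, MBD1 and EZH1; 10.5% against 3.27%), and GGGCGG, the GC box, in 24 (63.2% against 44.6%). CCAAT was in 13 (34.2% against 35.7%). CCGGAAG of ETS factors (5.26% against 10.7%), AAGATGGC of YY1 (5.26% against 3.03%) and TCTCGCGA of ZBTB33 (5.26% against 1.19%) were in 2 each. Of these strings, only CCAAT and AAGATGGC hold no CpG, and the 38 windows are richer in CpG than all promoters. The shares were not compared with promoters of like CpG content. The letters of different motifs could overlap, and a match is a description of the window only.

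In WT cells most of the 40 promoters were well above the typical promoter in accessibility. Their percentile among all tested promoters had a median of 73.5, and 37 were above the 50th. The highest was LMNB1, which encodes lamin B1 of the nuclear lamina, at 117 CPM in both WT libraries and 120 and 125 CPM in KO. KDM4A, KMT5C and CBX5 followed, with WT means of 116, 105 and 102 CPM. The WT means of LMNB1 and KDM4A, and those of KMT5C and CBX5, differed by less than the larger SD of each pair. At the low end stood UHRF1, ZFP57 and KDM4C, with WT means of 5.09, 3.47 and 2.46 CPM. Each of these 3 had fewer than 100 fragments in every library, while the other 37 held from 182 to 2128 fragments per library. The methods describe windows of one length for all genes, and the order of levels holds only if the table was counted in that way.

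**Figure D1:**
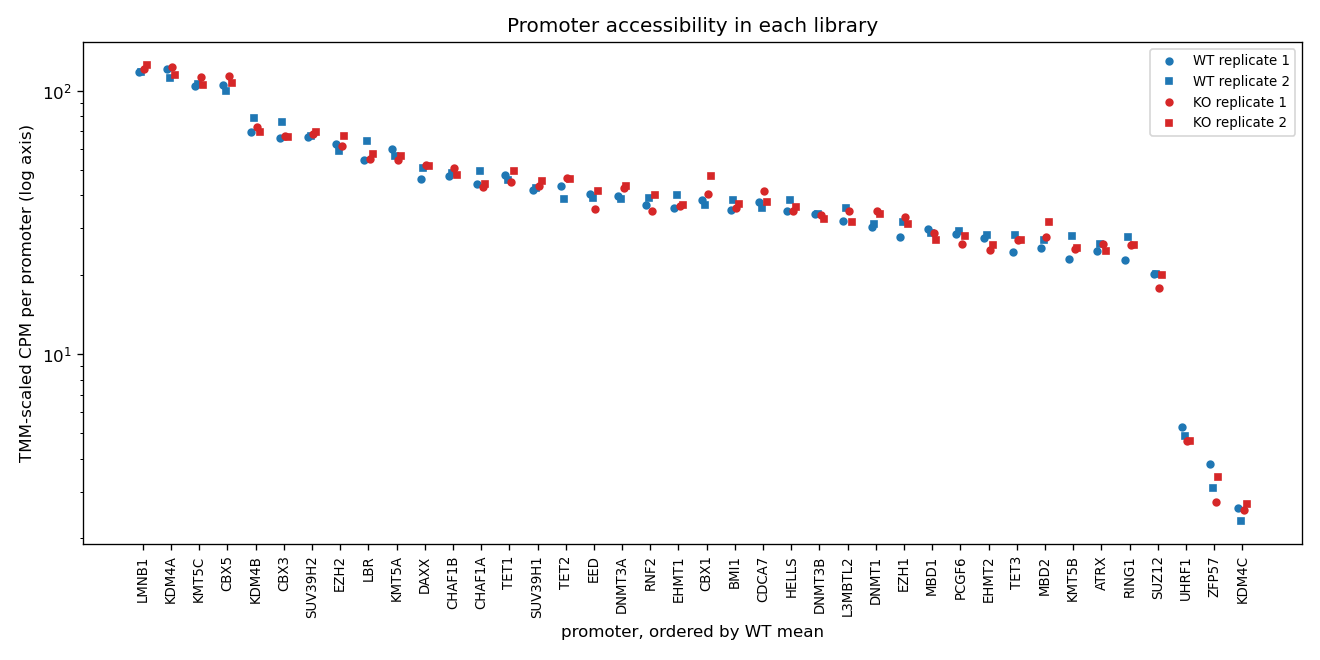
Promoter accessibility of the 40 genes in each library, as TMM-scaled CPM on a log axis, ordered by WT mean, with blue for WT and red for KO and one point per library. LMNB1 stands at 117 to 125 CPM, UHRF1, ZFP57 and KDM4C stand apart at under 6 CPM, and at most genes the 4 points lie close together.

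To ask whether loss of MORC2 altered accessibility at the genes of this machinery, KO and WT libraries were compared at each promoter. By edgeR's quasi-likelihood test with Benjamini-Hochberg adjustment over all tested promoters, 0 of the 40 were called at an adjusted p under 0.05, against 4.45% of all promoters (3.45% higher and 0.995% lower in KO). Before adjustment, 3 (7.50%) had a p under 0.05, namely CBX1, TET2 and MBD2, all with higher values in KO, against 20.3% of all promoters. Which promoters had such a p, and the direction among them, depended on the scaling. CBX1, TET2 and MBD2 themselves had log2 fold changes above 0 in all of the fits run. With offsets that remove a trend of fold change with abundance, 6 of the 40 had an unadjusted edgeR p under 0.05. CBX1 was higher in KO, CBX3, KDM4B, LBR, KMT5A and CHAF1A were lower, and TET2 and MBD2 were not among them. The share of all promoters was not computed for that count. The DESeq2 Wald test and limma-trend also called 0, but they called only 0.0253% and 2.59% of all promoters, so that their counts add little. DESeq2 gave 0 of the 40 at an unadjusted p under 0.05. The KO libraries were both above the WT pair at 10 promoters (25.0%, against 25.2% of all promoters) and below them at 6 (15.0%, against 25.4%), and at 24 they overlapped. The share above is near that of all promoters.

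The differences were small. The log2 fold change of KO over WT ranged from -0.15 at ZFP57 to 0.24 at CBX1, with a median of 0.014 against -0.017 over all promoters, and 21 of the 40 (52.5%) were above 0, against 46.7%. It was under 0.1 in size at 28 promoters, and reached 0.2 at CBX1 and MBD2. The fold change of all promoters follows abundance, and with offsets that remove this trend the median of the 40 was -0.040, against 0.0011 over all. For the 37 promoters with at least 182 fragments in each library, the bounds of the 95% intervals ran from -0.31 (EHMT2) to 0.39 (CBX1), or 0.807 to 1.31 as a fold. In the edgeR fit with TMM scaling, changes beyond these sizes were therefore outside the interval at each of those 37. At the other 3 the intervals were wider. On the log2 scale a rise of 0.5 lay within that of KDM4C and a fall of 0.5 within those of UHRF1 and ZFP57. All these intervals rest on a spread pooled over promoters, and none were computed for other fits. With total count scaling, the log2 fold changes of CBX1 and MBD2 were 0.37 and 0.34.

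**Figure D2:**
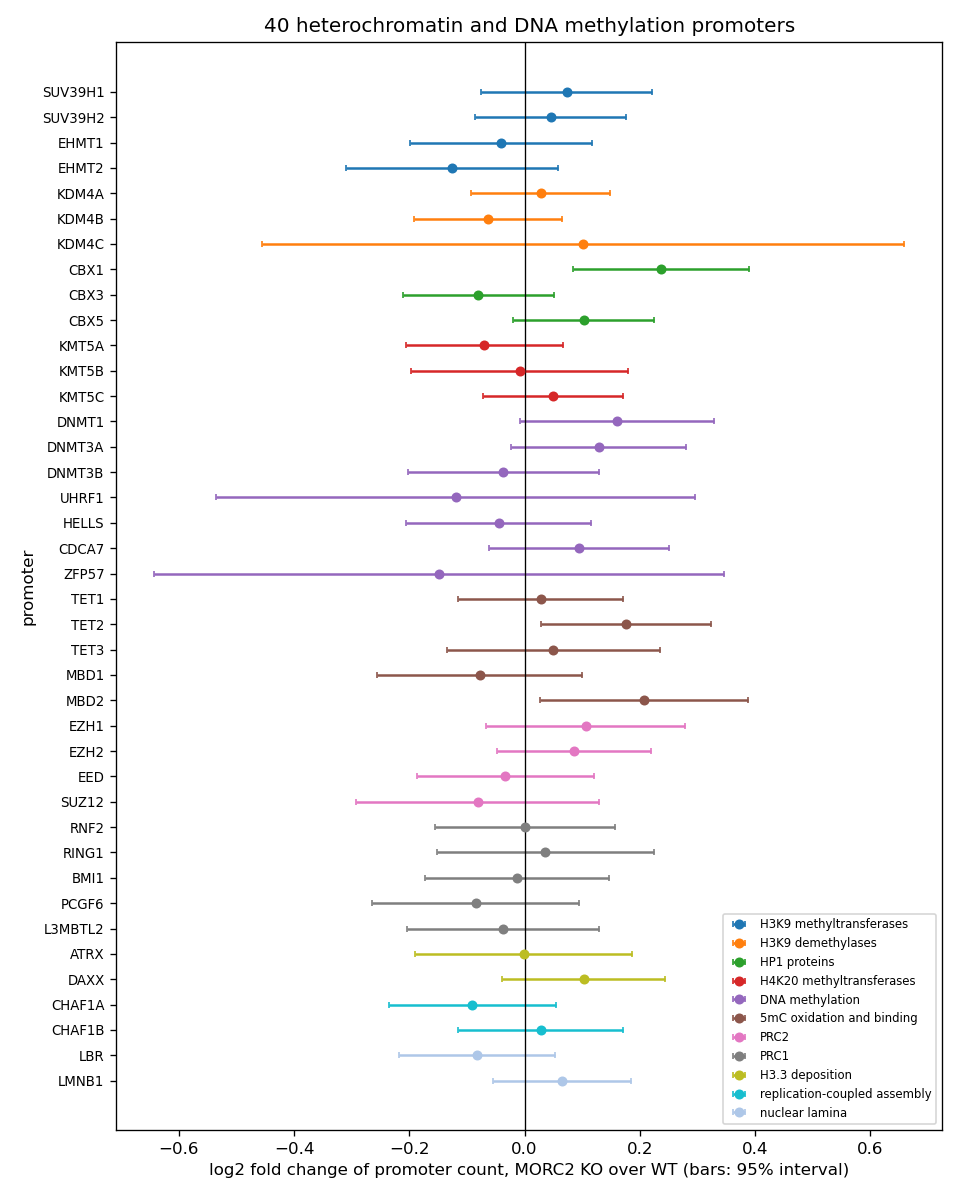
Log2 fold change of the promoter count, MORC2 KO over WT, for each of the 40 genes, with bars for the 95% interval and colours for the role. The intervals of CBX1, TET2 and MBD2 leave out 0, and the widest belong to KDM4C, ZFP57 and UHRF1, the 3 promoters with the fewest fragments.

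The difference between single libraries was close in size to the difference between group means. A mean of 2 libraries varies less than 1 library, so the 2 measures are not alike. Their like sizes do not show that the groups differed no more than replicates do. At the 40 promoters the median absolute difference of log2 CPM was 0.066 within KO, 0.097 within WT and 0.071 between the group means. Over all promoters these were 0.10, 0.13 and 0.13. Together the 40 held 0.257% of the nuclear count in WT replicate 1, 0.266% in WT replicate 2, and 0.257% and 0.258% in KO replicates 1 and 2. Their summed CPM was 1809 and 1818 in KO and 1759 and 1805 in WT.

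Of the 3 HP1 genes, whose proteins bind methylated H3K9, 0 were called, and the values of CBX1 and CBX5 were higher in both KO libraries. CBX1 (HP1β, Gene ID 10951) held 442 and 805 fragments in KO (replicates 1 and 2, in this order throughout) and 371 and 332 in WT, or 40.5 and 47.2 CPM in KO and 38.5 and 36.8 CPM in WT. Both KO libraries were above both WT libraries, but KO replicate 1 lay nearer to WT replicate 1 than to KO replicate 2. The means were 43.9 ± 4.71 CPM for KO and 37.6 ± 1.24 CPM for WT (SD, n = 2 each), and the log2 fold change was 0.24 (edgeR adjusted p 0.0508, SE 0.078). This value, just short of the threshold, depended on the libraries and the scaling. Without KO replicate 1 the log2 fold change was 0.34 and passed the threshold (adjusted p 0.0176), and with DESeq2 size factors the adjusted p was 0.0469. Without KO replicate 2 it was 0.11.

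CBX5 (HP1α, Gene ID 23468) had 114 and 106 CPM in KO and 105 and 99.6 CPM in WT. Its log2 fold change of 0.10 (edgeR adjusted p 0.341, SE 0.062) was not past the threshold. CBX3 (HP1γ, Gene ID 11335) held 735 and 1141 fragments in KO and 637 and 686 in WT, or 67.4, 66.9, 66.1 and 76.0 CPM. WT replicate 1 was the lowest of the 4 libraries and WT replicate 2 the highest, so the groups overlapped, and means of 67.2 ± 0.358 CPM for KO and 71.1 ± 6.95 CPM for WT (SD, n = 2 each) gave a log2 fold change of -0.08 (edgeR, with SE 0.066 and adjusted p 0.509). The CBX5 and CBX3 windows cannot be told apart from those of HNRNPA1 and HNRNPA2B1, genes of splicing-related RNA-binding proteins that start within 2000 bases of them on GRCh38.p14. The HNRNPA1 row had 1244 and 1823 fragments in KO and 1012 and 904 in WT, where CBX5 had 1241, 1815, 1009 and 899.

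Among the H3K9 methyltransferases, SUV39H1 and SUV39H2, which trimethylate H3K9 in constitutive heterochromatin, had log2 fold changes of 0.073 and 0.045 (SE 0.075 and 0.067). At both, the KO libraries were above the WT libraries by a small margin, with 68.4 and 69.4 CPM against 66.4 and 67.3 CPM at SUV39H2. EHMT1 and EHMT2 encode GLP and G9a, which form the main H3K9 dimethyltransferase of euchromatin. EHMT2 (Gene ID 10919) held 271 and 444 fragments in KO and 265 and 255 in WT, or 24.9, 26.0, 27.5 and 28.2 CPM. Both KO libraries were below both WT libraries. Its means of 25.4 ± 0.834 CPM for KO and 27.9 ± 0.511 CPM for WT (SD, n = 2 each) gave a log2 fold change of -0.13 (edgeR, with SE 0.094 and adjusted p 0.455). The row of C2, a complement gene whose start is within 2000 bases, had nearly the same counts (274, 447, 266 and 255). EHMT1 had a log2 fold change of -0.040 with overlapping groups.

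The H3K9 demethylases KDM4A and KDM4B had log2 fold changes of 0.028 and -0.064, with overlapping groups. KDM4C (Gene ID 23081) was barely accessible in this window, with 28 and 46 fragments in KO and 25 and 21 in WT, or 2.57, 2.70, 2.60 and 2.33 CPM. No library stood apart. Its means of 2.63 ± 0.0914 CPM for KO and 2.46 ± 0.191 CPM for WT (SD, n = 2 each) gave the least precise value of the 40, where the log2 fold change was 0.10 (edgeR adjusted p 0.870, SE 0.28) with an interval from -0.46 to 0.66. The H4K20 methyltransferases had log2 fold changes of -0.070 at KMT5A, which adds the first methyl group, and -0.0088 and 0.049 at KMT5B and KMT5C, which add the others. At KMT5A the KO libraries, at 54.3 and 56.3 CPM, were below the WT libraries, at 60.0 and 56.4 CPM, with KO replicate 2 and WT replicate 2 almost equal.

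Of the DNA methylation genes, DNMT1, the maintenance methyltransferase, held 380 and 582 fragments in KO and 293 and 282 in WT, or 34.9 and 34.1 CPM in KO and 30.4 and 31.2 CPM in WT. Both KO libraries were above both WT libraries, and the gap between groups was wider than that between replicates. The log2 fold change was 0.16 (edgeR adjusted p 0.274, SE 0.086). DNMT3A, a de novo methyltransferase, showed the same order of libraries, with 42.5 and 43.3 CPM in KO, 39.8 and 38.9 CPM in WT and a log2 fold change of 0.13 (edgeR, with SE 0.077 and adjusted p 0.333). DNMT3B, its paralogue, had 33.8 and 32.6 CPM in KO and 34.0 CPM in both WT libraries, a log2 fold change of -0.037.

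UHRF1, which brings DNMT1 to hemimethylated CpGs, was among the 3 sparse windows. It held 51 and 80 fragments in KO and 51 and 44 in WT, with a log2 fold change of -0.12 and an interval from -0.53 to 0.30. The row of ARRDC5, next to it in gene order, had 52, 80, 53 and 40, and whether both counted the same fragments was not tested. HELLS, a remodeller, and CDCA7, its partner, had log2 fold changes of -0.045 and 0.094. ZFP57, which binds methylated imprinting control regions, had 30 and 58 fragments in KO and 37 and 28 in WT, and a log2 fold change of -0.15 with an interval from -0.64 to 0.35.

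TET2 and MBD2 had the smallest p-values after CBX1. TET2 (Gene ID 54790), which oxidises 5-methylcytosine, held 510 and 786 fragments in KO and 417 and 349 in WT, or 46.8 and 46.1 CPM in KO and 43.3 and 38.6 CPM in WT. Both KO libraries were above both WT libraries, and the WT libraries were further from each other than WT replicate 1 was from the KO libraries. The means were 46.4 ± 0.485 CPM for KO and 41.0 ± 3.29 CPM for WT (SD, n = 2 each), and the log2 fold change was 0.18 (edgeR adjusted p 0.156, SE 0.075). The 300-base window of TET2 has 47.7% GC, and with offsets fitted on GC content its log2 fold change was 0.25 and passed the threshold (adjusted p 0.0252). Without WT replicate 2 it was 0.10.

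MBD2 (Gene ID 8932), a reader of methylated CpG, held 303 and 543 fragments in KO and 243 and 244 in WT, or 27.8 and 31.8 CPM in KO and 25.2 and 27.02 CPM in WT. Here too the KO libraries were the highest, although KO replicate 1 and WT replicate 2 were close. Its means were 29.8 ± 2.86 CPM for KO and 26.1 ± 1.26 CPM for WT (SD, n = 2 each), and the log2 fold change was 0.21 (edgeR adjusted p 0.175, SE 0.092), and 0.096 without KO replicate 2. TET1, TET3 and MBD1, the other members of these families, had log2 fold changes of 0.028, 0.050 and -0.078, with overlapping groups at all 3.

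In PRC2, the catalytic subunits EZH1 and EZH2 had log2 fold changes of 0.11 and 0.085, and the core subunits EED and SUZ12 of -0.033 and -0.081. At EZH2 the libraries overlapped, with 61.4 and 67.0 CPM in KO and 62.8 and 58.8 CPM in WT. SUZ12 had 17.8 and 19.9 CPM in KO and 20.2 CPM in both WT libraries. In PRC1, the ubiquitin ligases RNF2 and RING1 had log2 fold changes of 0.0011 and 0.036, BMI1 of -0.013, and PCGF6 and L3MBTL2, subunits of a variant complex, of -0.085 and -0.037. All PRC1 promoters other than PCGF6 overlapped between groups.

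ATRX and DAXX deposit the histone variant H3.3 at heterochromatin. ATRX showed nearly the same level in both groups, with 26.2 and 24.7 CPM in KO and 24.5 and 26.2 CPM in WT and a log2 fold change of -0.0015 (interval from -0.19 to 0.19). DAXX had 52.2 and 51.5 CPM in KO and 46.0 and 50.6 CPM in WT, a log2 fold change of 0.10 (SE 0.072). The row of ZBTB22, which starts within 2000 bases, had a log2 fold change of -0.035.

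CHAF1A and CHAF1B are subunits of CAF-1, which assembles nucleosomes behind the replication fork. CHAF1A (Gene ID 10036) held 471 and 756 fragments in KO and 425 and 446 in WT, or 43.2, 44.3, 44.1 and 49.4 CPM. WT replicate 2 was high and the other 3 libraries were close. Its means of 43.8 ± 0.800 CPM for KO and 46.8 ± 3.72 CPM for WT (SD, n = 2 each) gave a log2 fold change of -0.09 (edgeR, with SE 0.074 and adjusted p 0.503), and -0.0087 without WT replicate 2. CHAF1B had a log2 fold change of 0.028. At the nuclear lamina, LBR, the lamin B receptor that tethers heterochromatin to the envelope, had 54.7 and 57.3 CPM in KO and 54.7 and 64.6 CPM in WT, a log2 fold change of -0.083 that was 0.039 without WT replicate 2. LMNB1 had a log2 fold change of 0.065 (SE 0.061).

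Summed by role, 3 of 11 groups had both KO libraries above both WT libraries, as did 25.2% of single promoters, so this count is not a result about these roles. The HP1 promoters summed to 222 and 220 CPM in KO and 210 and 212 CPM in WT, 1.05 times as much in KO by the means. This sum holds the CBX5 and CBX3 windows, which cannot be told apart from those of HNRNPA1 and HNRNPA2B1. The DNA methylation promoters summed to 195 and 192 CPM in KO and 186 CPM in both WT libraries, a ratio of 1.04. The promoters of 5-methylcytosine oxidation and binding summed to 175 and 182 CPM in KO and 171 and 168 CPM in WT, a ratio of 1.05. The H3K9 methyltransferases, H3K9 demethylases, H4K20 methyltransferases, PRC2, PRC1, H3.3 deposition, replication-coupled assembly and lamina sums overlapped, with ratios from 0.981 to 1.05. These sums are a description. Their smallest possible p in an exact permutation test of 2 libraries a group is 0.333, and no other test was run.

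**Figure D3:**
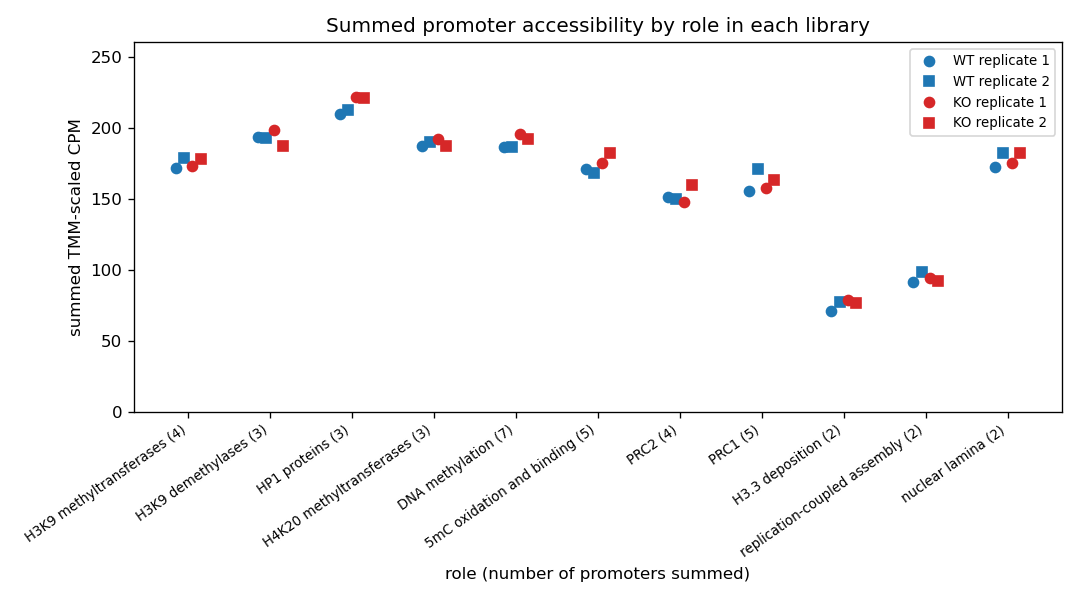
Summed promoter accessibility (TMM-scaled CPM) of each role in each library, with the number of promoters in brackets, blue for WT and red for KO. The HP1 sums are 222 and 220 CPM in KO against 210 and 212 CPM in WT. They hold the CBX5 and CBX3 windows, which cannot be told apart from those of HNRNPA1 and HNRNPA2B1. In 8 of the 11 roles the KO and WT points overlap.

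Fragments near a start can fall in the windows of neighbouring genes. At 17 of the 40, the row just before or after in gene order differed by under 25% in every library, and 35.7% of all tested rows had such a neighbour. In 6 cases the starts were within 2000 bases on GRCh38.p14: EHMT1 with ARRDC1-AS1, EHMT2 with C2, CBX3 with HNRNPA2B1, CBX5 with HNRNPA1, DAXX with ZBTB22 and LMNB1 with LMNB1-DT. The others were SUV39H2 with HSPA14, DNMT1 with EIF3G, DNMT3B with MAPRE1, UHRF1 with ARRDC5, TET1 with SLC25A16 and CCAR1, TET3 with DGUOK-AS1, MBD2 with POLI, BMI1 with COMMD3, L3MBTL2 with EP300-AS1, CHAF1A with SH3GL1 and LBR with ENAH. These rows may only have similar levels, which was not tested. CBX1 and TET2 had no such neighbour.

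Another 69 genes of the same pathways, such as further H3K9 enzymes, HP1 partners, Polycomb subunits and histone chaperones, were all tested. SETDB2 was the 1 called (1.45%, against 4.45% of all promoters), and it was higher in KO, with 0 called lower. At an unadjusted p under 0.05 there were 12 (17.4%, against 20.3%), 7 of them with higher and 5 with lower values in KO. Both KO libraries were above both WT libraries at 19 (27.5%, against 25.2%) and below them at 17 (24.6%, against 25.4%), and the median log2 fold change was -0.019. These shares are near or below those of all promoters. Values ranged from -0.45 at CDYL, a chromodomain corepressor with 25 to 44 fragments per library, to 0.27 at MGA, a subunit of a variant PRC1, both named after their values were seen.

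SETDB2 (Gene ID 83852) encodes a SET-domain protein of the H3K9 methyltransferase family. It held 1289 and 1995 fragments in KO and 1031 and 852 in WT, or 118 and 117 CPM in KO and 107 and 94.4 CPM in WT. Both KO libraries were above both WT libraries, and the WT libraries were further apart than the KO libraries. The means were 118 ± 0.877 CPM for KO and 101 ± 8.98 CPM for WT (SD, n = 2 each), and the log2 fold change was 0.22 (edgeR adjusted p 0.0182, SE 0.062). Its window cannot be told apart from the row of SETDB2-PHF11, a readthrough transcript with a similar count. The call was lost with a log2 fold change at least as large in limma-trend (0.23, adjusted p 0.0519), in DESeq2 (0.23, adjusted p 0.627), with total count scaling (0.36, adjusted p 0.459) and without KO replicate 1 (0.23, adjusted p 0.0585) or KO replicate 2 (0.24, adjusted p 0.198). It was lost with a smaller one with offsets on abundance (0.13, adjusted p 0.227) and without WT replicate 2 (0.13, adjusted p 0.375).

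How the values of the 6 promoters with the smallest p in each direction depend on the processing is shown by plotting their log2 fold change under each setting. CBX1, TET2 and MBD2 were above 0 in all of the fits run, and reached 0.37, 0.31 and 0.34 with total count scaling, which moves the median of all promoters to 0.12. EHMT2, CHAF1A and CBX3 were below 0 in the other fits but above 0 with total count scaling (0.0080, 0.041 and 0.052), and CBX3 also without WT replicate 2 (0.021).

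**Figure D4:**
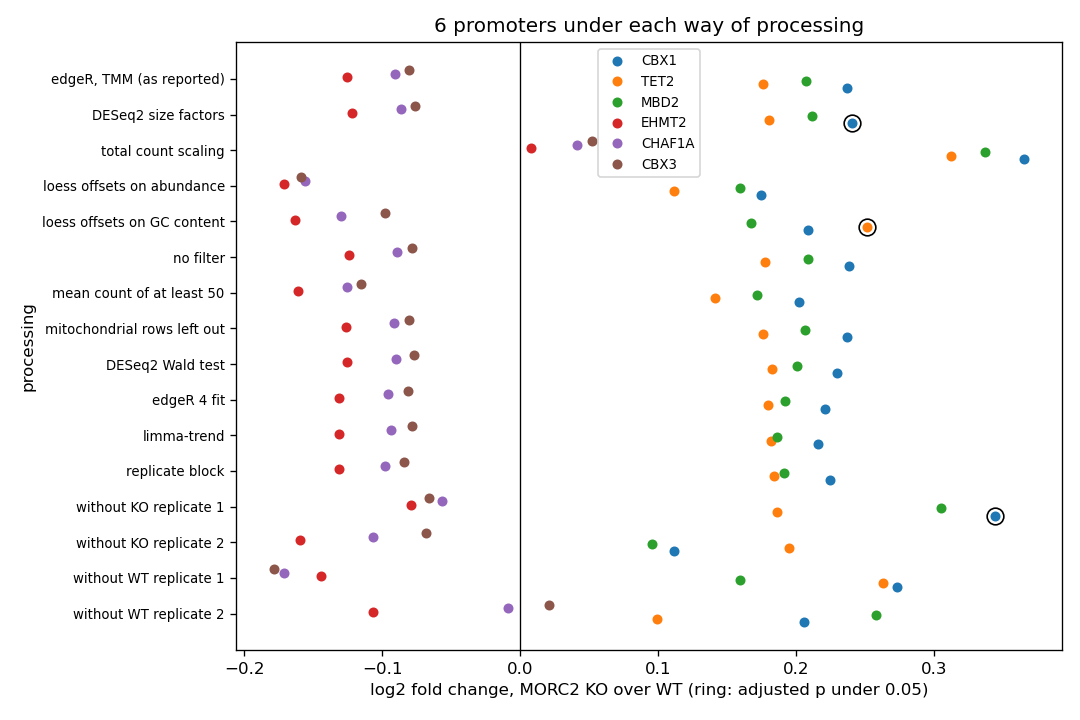
Log2 fold change (MORC2 KO over WT) of CBX1, TET2, MBD2, EHMT2, CHAF1A and CBX3 under each setting, with a ring where the adjusted p was under 0.05. CBX1 is ringed with DESeq2 size factors and without KO replicate 1, TET2 with offsets on GC content, and none of the 6 in the fit reported.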

How the data were processed

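ATAC-seq was performed on 4 libraries, 2 of MORC2 KO and 2 of WT HEK293T cells, grouped by their titles. The authors trimmed reads, aligned them with bowtie2 to the CHM13 assembly, and discarded duplicates (Picard) and pairs with low mapping quality. In the deposited promoter table are raw counts of fragments per NCBI Gene ID, without normalisation. The methods describe a window around each gene start and fragment midpoints, while the submitters' processing notes name featureCounts. Which of them made the table is not given in the sources used here, and overlapping windows can count a fragment in more than 1 row. The peak list was not used.

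Symbols came from RefSeq (GRCh38.p14) for 28763 of 28775 IDs. The other 12 rows, at most 0.0057% of a library, were kept without a symbol and went through the same filter as the rest. Counts were filtered with filterByExpr (1128 rows removed), scaled by TMM and tested in edgeR 4.0.16 under R 4.3.3 (quasi-likelihood F-test, legacy fit, no covariates), with two-sided p-values adjusted by Benjamini-Hochberg over 27647 rows. SEs were derived from the F statistics. The median promoter held 132 to 250 fragments per library. P-values, SEs and intervals rest on a spread between these libraries that was pooled over promoters (median degrees of freedom 1383). They therefore hardly follow the replicates of a single promoter. CBX3 and SUV39H2, with WT SDs of 6.95 and 0.693 CPM, had SEs of 0.066 and 0.067. The code was tested on simulated data.

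Named in full were promoters called, the 3 uncalled ones with the smallest p in each direction and the widest interval. The members, lists and tests were chosen with earlier results of these data known. Alternatives covered scaling, filters, a replicate block, limma 3.58.1, DESeq2 1.42.0, the threshold and each library left out. One marker promoter is not reported here.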

Additional observations from a re-analysis of the deposited data

How the results depend on the processing

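Of the 40 promoters, 0 were called lower in each alternative, and 0 higher in each but 4. One was called higher with DESeq2 size factors (CBX1), with loess offsets on GC content (TET2), which need a RefSeq promoter and so tested 38 of the 40, without KO replicate 1 (CBX1) and at an adjusted p under 0.1, so the range with each library left out was 0 to 1. Total count scaling called 0.0723% of all promoters, DESeq2 0.0253% and the fit without KO replicate 2 0.148%, so a count of 0 in these says nothing about the 40 or the 69. The adjusted p of CBX1 ranged from 0.0176 without KO replicate 1 to 0.978 in DESeq2. Of the 69 other genes, 0 were called higher with total count scaling, loess offsets on abundance, DESeq2, limma-trend, the replicate block and rows with a similar neighbour left out, 4 with GC offsets and 3 at an adjusted p under 0.1, with 0 to 1 when a library was left out. Offsets on abundance called 1.41% of all promoters, limma-trend 2.59% and the block 2.77%, against 4.45%. GC offsets, which tested 63 of the 69, called 5.67%, and DESeq2 size factors 4.63%. An adjusted p under 0.1 was found at 8.13% of all promoters. Called lower were 3 with offsets on abundance, 1 at a mean count of at least 50 and 1 at an adjusted p under 0.1, with 0 to 2 when a library was left out. The median of the 40 was 0.15 with total count scaling, where that of all promoters was 0.12, -0.040 with offsets on abundance, -0.021 at a mean count of at least 50, and -0.015 to 0.047 with a library left out, lowest without WT replicate 1 and highest without WT replicate 2. The cause was not tested. At a mean count of at least 50, 38 of the 40 and 65 of the 69 were tested, and 3.97% of all promoters were called.

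With the replicate number as a block, 0 of the 40 were called (3 at an unadjusted p under 0.05), the median was 0.010, and SETDB2 had an adjusted p of 0.0501. Over all promoters 765 were called in place of 1229. The numbers gave no sign of a pairing: KO and WT libraries that share a number deviated from the group means with a correlation of -0.00027 over all promoters and -0.25 over the 40.

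Several promoters changed sign. Total count scaling moves the median of all promoters from -0.017 to 0.12, so values a little below 0 cross it by construction, and these were EHMT1 (0.093), EHMT2 (0.0080), KDM4B (0.070), CBX3 (0.052), KMT5A (0.063), KMT5B (0.12), DNMT3B (0.10), UHRF1 (0.023), HELLS (0.088), MBD1 (0.060), EED (0.096), SUZ12 (0.052), BMI1 (0.12), PCGF6 (0.048), L3MBTL2 (0.10), ATRX (0.14), CHAF1A (0.041) and LBR (0.047). With offsets on abundance they were SUV39H2 (-0.033), KDM4A (-0.063), KMT5C (-0.040), UHRF1 (0.081), ZFP57 (0.10), TET1 (-0.039), RNF2 (-0.059), RING1 (-0.0071), CHAF1B (-0.040) and LMNB1 (-0.026), and with GC offsets RNF2 (-0.035), CHAF1B (-0.0086) and LBR (0.064). At a mean count of at least 50 they were KDM4A (-0.0070), TET1 (-0.0070), RNF2 (-0.034) and CHAF1B (-0.0073). RNF2 was -0.0055 in DESeq2, -0.015 in the edgeR 4 fit, -0.018 in limma-trend and -0.014 with the block. ATRX was 0.0060 in DESeq2, 0.0040 in the edgeR 4 fit, 0.0047 in limma-trend, 0.0027 with DESeq2 size factors and 0.00012 with no filter. With each library left out in turn, values on both sides of 0 were found for EHMT1 (-0.12 to 0.042), KDM4A (-0.032 to 0.092), KDM4B (-0.15 to 0.024), CBX3 (-0.18 to 0.021), KMT5B (-0.15 to 0.14), DNMT3B (-0.041 to 0.00016), HELLS (-0.11 to 0.025), ZFP57 (-0.33 to 0.020), TET1 (-0.053 to 0.11), TET3 (-0.056 to 0.16), EED (-0.16 to 0.073), SUZ12 (-0.17 to 0.0035), RNF2 (-0.11 to 0.098), RING1 (-0.11 to 0.19), BMI1 (-0.076 to 0.050), L3MBTL2 (-0.12 to 0.046), ATRX (-0.051 to 0.055) and LBR (-0.20 to 0.039). The causes of these changes of sign were not tested, and for total count scaling only the shift of the median is given.

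Fits that left a group with 1 library assume that it varies like the other group. In the other comparisons of the 40 and SETDB2 direction and call were the same, or the call alone differed as given. Changes of direction among the rest of the 69 are not listed. Depth limits KDM4C, UHRF1 and ZFP57 most.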
